A study of Mus musculus with 4 samples.

Results

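Intraepithelial lymphocytes (IEL) of the mouse small intestine were set against the colonic sample that carries the label LP, for lamina propria. The comparison used 2 of the series' 4 Affymetrix arrays, and every gene with a usable probe set entered it, 22180 genes in all. A gene's level is its log2 value as deposited, and a difference is the small intestinal IEL level minus the level on the array labelled LP. In pairs of values below, the small intestinal IEL array comes first.

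Both samples came from unmanipulated C57Bl/6 mice aged 8 to 10 weeks. The small intestinal sample was the epithelial fraction shaken off in EDTA. The LP sample came from colon that had been stripped of epithelium in that way and then digested with collagenase. Both were passed through magnetic negative selection for T cells, with a biotin-labelled antibody against EpCAM added to capture epithelial cells. The series text speaks of 10 mice pooled for each sample (5 male and 5 female) and also of 10 mice in total, so each array is 1 pool of animals. The other arrays, used here only for levels beside the result, were colon IEL of unmanipulated mice and colon IEL of mice given vancomycin, ampicillin, neomycin and metronidazole in drinking water for 7 days and recolonized over 7 days. Region, tissue layer and digestion differ together between the compared samples and cannot be told apart.

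The epithelium of the small intestine digests and absorbs nutrients through a brush border of enzymes and carriers, and Paneth cells at the base of its crypts secrete antimicrobial peptides. Colonic epithelium takes up salt, water and short-chain fatty acids and is rich in mucus-secreting goblet cells. IEL are mostly T cells held between epithelial cells by the integrin CD103, and in the small intestine many carry CD8 alpha homodimers, a gamma delta receptor and cytotoxic granules.

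The labels were first set against marker genes. The CD3 chains that signal for the T cell receptor were read through Cd3g at 9.25 against 2.61 and Cd3e at 9.49 against 3.72. The T cell marker was thus bright on the IEL array, and on the LP array Cd3g lay close to the array's median of 2.18. Car1, a cytosolic carbonic anhydrase of colonocytes, was at 1.49 against 11.53, and the colonic chloride and bicarbonate exchanger Slc26a3 at 5.78 against 10.26. The LP array therefore held abundant colonic epithelial transcripts and few T cell transcripts, against its label (fewer T cells and less RNA per T cell cannot be told apart in bulk RNA), and it is called the array labelled LP throughout. Sis, the sucrase and isomaltase of small intestinal enterocytes, was at 9.53 against 4.82, and the Paneth cell defensin Defa24 at 9.98 against 3.11. Epcam itself, the target of the depleting antibody, was at 7.88 against 9.20, so epithelial RNA was present on both arrays.

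The regional character of the epithelial transcripts can be set beside the promoters of their genes. In a RefSeq promoter table of the mouse build GRCm38.p6, 3 short motifs were searched on both strands: GTTAAT, a half-site of the HNF1 factors, AGATAA, read by GATA factors, and TTTATG, read by CDX factors. The 150 bases before the start are shown for Sis at chr3:72967864-72968013 (minus strand), the fatty acid binding protein gene Fabp1 at chr6:71199729-71199878 (plus), the lactase gene Lct at chr1:128328319-128328468 (minus) and Slc26a3 at chr12:31438069-31438218 (plus), each 5′ to 3′ with motif matches in capitals. They are shown, out of 7 promoters of genes with large differences that were searched, because they held a match. Sis, Fabp1 and Lct were far brighter on the small intestinal IEL array and Slc26a3 on the array labelled LP. The same windows of Apoa4, bright on the former, and of Slc6a14 and Sult1a1, bright on the latter, held no match.
Sis: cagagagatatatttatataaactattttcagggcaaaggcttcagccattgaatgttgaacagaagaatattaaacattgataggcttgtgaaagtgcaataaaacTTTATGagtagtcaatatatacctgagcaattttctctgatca
Fabp1: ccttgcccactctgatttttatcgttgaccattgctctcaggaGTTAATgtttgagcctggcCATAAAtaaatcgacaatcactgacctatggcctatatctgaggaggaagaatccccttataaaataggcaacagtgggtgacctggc
Lct: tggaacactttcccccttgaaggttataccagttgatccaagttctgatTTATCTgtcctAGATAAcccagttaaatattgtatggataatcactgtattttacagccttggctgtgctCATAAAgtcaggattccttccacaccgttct
Slc26a3: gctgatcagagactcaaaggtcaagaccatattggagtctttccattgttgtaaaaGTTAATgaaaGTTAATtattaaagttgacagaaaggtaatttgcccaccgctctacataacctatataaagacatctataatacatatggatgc
Sis held 1 CDX match that began 43 bases before the start. Fabp1 held an HNF1 half-site at 107 bases and a CDX match at 88, and Lct held GATA matches at 101 and 90 bases and a CDX match at 31. Slc26a3 held HNF1 half-sites at 94 and 84 bases. Over all 32851 promoter windows of 250 bases before the start, 6.43% held the HNF1 half-site, 9.99% the GATA motif and 10.8% the CDX motif. For brush border enzyme genes (15 of 17 genes matched) the corresponding counts were 2, 3 and 3 of 18 windows. For fat absorption genes (15 of 20 matched) the counts were 3, 2 and 2 of 16 windows, and for colonocyte genes (17 of 20 matched) 4, 3 and 4 of 20 windows. The colonocyte shares were thus above the brush border shares for the HNF1 half-site and the CDX motif and below for the GATA motif. With only 2 to 4 matching windows per list, these shares cannot tell whether the motifs set small intestinal genes apart from colonic ones. For T cell receptor genes (11 of 16 matched) the counts were 0, 3 and 0 of 16 windows. No test was made of these shares, and a match is a description of the letters, not of a bound site.

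A gene was counted when its level on the brighter of both arrays reached that array's median over all genes (2.24 and 2.18), and it was called at a difference of 2-fold or more, which is 1 on the log2 scale. Of 12164 genes above this floor, 1065 (8.76%) were at least 2-fold higher on the small intestinal IEL array and 1910 (15.7%) lower. The median difference was −0.17, and 75.5% of genes lay within 2-fold. Higher genes made up 35.8% of those called, but 46.3% after centring on the median and 47.4% after a lowess correction. With 1 array per group no difference has a replicate check and no test was possible, so the number of arrays limits the precision of every value. Within this pair of arrays, the differences of 67 cytosolic ribosomal protein genes (57 above the floor) had an SD of 0.347. Probe sets of the same gene disagreed with an SD of 0.856 over 968 genes with 2 of them. Neither SD measures the error between arrays or between pools of animals. Of the higher genes, 368 lay below the median of the array labelled LP, and 301 of the lower genes lay below the median of the small intestinal IEL array, so the size of such differences is limited by the dim end of an array.

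**Figure D1:**
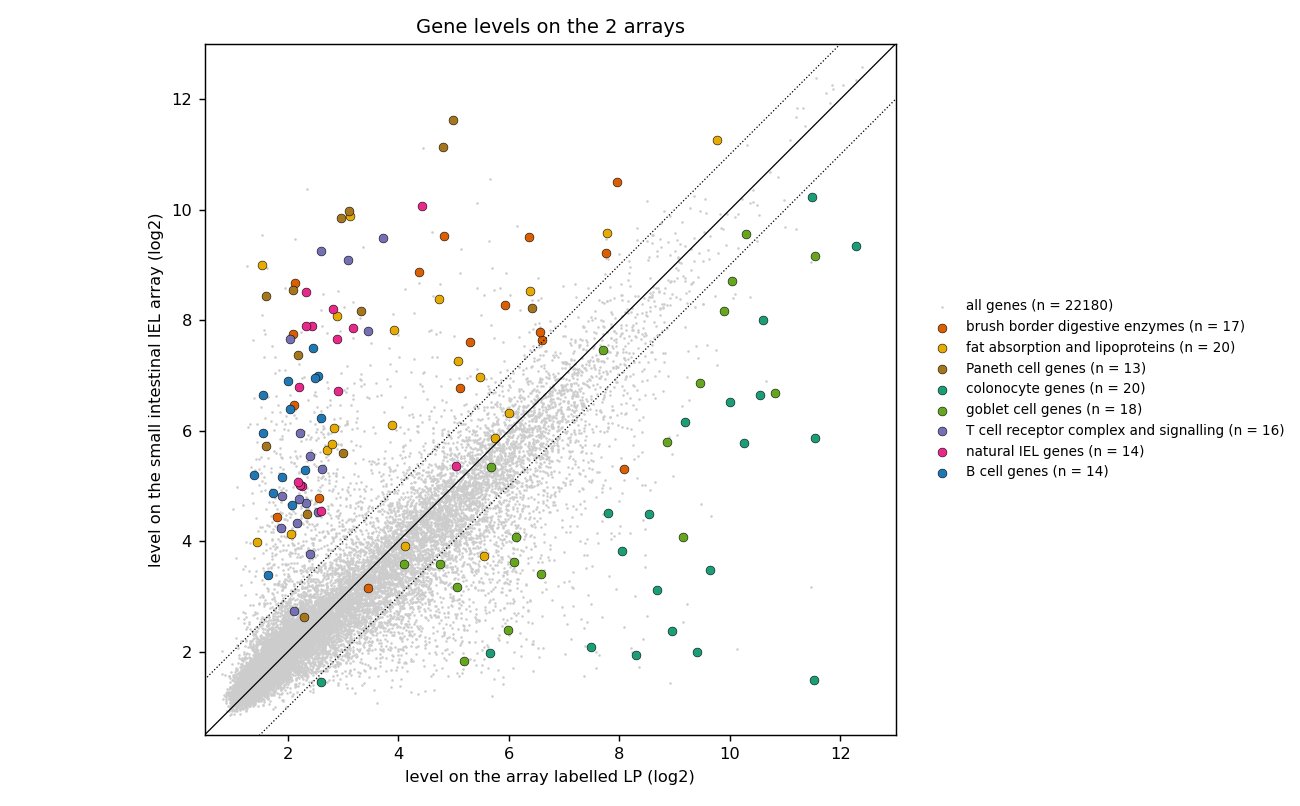
Level of each of 22180 genes on the small intestinal IEL array (vertical, log2) against the array labelled LP (horizontal, log2), with 8 gene lists coloured; the solid line marks equal levels and the dotted lines a 2-fold difference. Brush border, fat, Paneth, T cell and B cell genes lie mostly above the lines and colonocyte and goblet cell genes below them.

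Excluding receptor segments and unnamed genes, the 15 largest positive differences mixed cytotoxic lymphocyte genes with genes of small intestinal epithelium. Gzma, a granzyme of cytotoxic lymphocytes, stood first at 10.38 against 2.35, a 260-fold difference, and Gzmb was at 9.46 against 2.13. Both were brighter here than on the colon IEL arrays, where Gzma was at 4.98 and 7.73 and Gzmb at 4.64 and 4.76 (unmanipulated and recolonized). Levels spread more widely on the small intestinal IEL array (SD over all genes 1.67) than on those arrays (1.23 and 1.35). Here and below, levels on the colon IEL arrays are as deposited and were not rescaled, so this unlike range enters such comparisons. Reg1, a secreted lectin-like protein of the regenerating family, was at 9.55 against 1.54. Akp3, an intestinal alkaline phosphatase, was at 8.95 against 1.62, and Enpp3, an ectoenzyme that splits nucleotides, at 8.59 against 1.96. The others were Defa39, Fabp1, Lyz1, Defa24, Mptx2, Apoa4, Ccl5, Defa22, Cd3g and Slc2a2, with differences from 6.56 to 7.71.

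The 15 largest negative differences were led by colonocyte genes. Car1 differed by −10.04, which is 1056-fold, and it was at 7.49 and 8.33 on the unmanipulated and recolonized colon IEL arrays. The 4 red cell genes measured had median levels of 8.75 and 3.37 on those arrays. The part of red cell RNA in the Car1 level there was not tested. The gasdermins Gsdmc2 and Gsdmc3 were at 1.43 against 8.91 and 1.71 against 7.58. Slc6a14, a carrier of neutral and basic amino acids, was at 1.99 against 9.40. Hao2, a hydroxyacid oxidase, was at 1.73 against 8.37, and Mal, a protein of apical membrane sorting, at 2.53 against 9.15. Dmbt1, a secreted scavenger receptor that binds bacteria, was at 2.87 against 9.22, and the tetraspanin Tspan1 at 2.0 against 8.22. Several handle lipids of membrane and barrier: the fatty acid hydroxylase Fa2h was at 2.06 against 8.21, the acyltransferase Mboat1 at 2.23 against 8.43 and the lipid carrier Abca12 at 1.56 against 7.37. Sult1a1, Tgm3, Slc37a2 and Ces1g completed the group, with differences from −6.59 to −5.84.

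**Figure D2:**
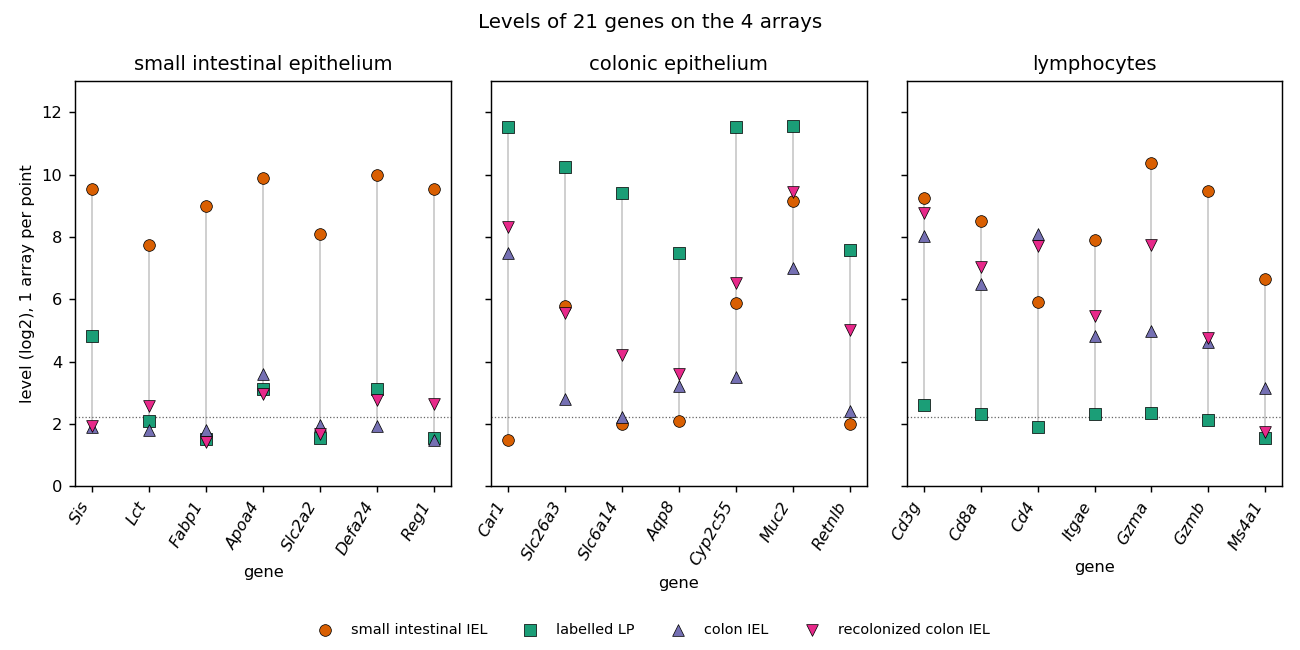
Level (log2) of 21 genes on the 4 arrays, 1 point per array, for genes of small intestinal epithelium, colonic epithelium and lymphocytes; the dotted line is the median gene of the small intestinal IEL array. The small intestinal IEL array is the highest for all 7 small intestinal genes, the array labelled LP for all 7 colonic genes, and Cd3g is at 9.25 against 2.61 on the compared arrays.

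Genes of nutrient digestion were higher on the small intestinal IEL array. Of 17 brush border digestive enzymes, 15 were at least 2-fold higher and 1 lower, beside 8.76% and 15.7% of all genes above the floor, with a median difference of 2.34 (here and below, list medians are over all measured members; the median over all 22180 genes was 0.00). The same shares, 8.76% higher and 15.7% lower, stand beside the counts of every list below. The lactase gene Lct was at 7.75 against 2.10, and Treh, which splits trehalose, at 6.47 against 2.12. Among peptidases, Mme (neprilysin) was at 8.67 against 2.13 and Ace, the angiotensin-converting enzyme, at 8.87 against 4.38. Alpi, another intestinal alkaline phosphatase, was at 9.50 against 6.37, and Tmprss15, the enteropeptidase that activates trypsinogen, at 4.44 against 1.81. Sis had a difference of 4.70, although its level of 4.82 on the array labelled LP lay well above that array's median; on the colon IEL arrays Sis was at 1.90 and 1.95. The metalloprotease Mep1a went the other way at 5.32 against 8.09, whereas its partner Mep1b was at 7.78 against 6.57. Amn, a membrane anchor of the vitamin B12 receptor, differed by −0.30. The list's median level was 7.75 against 5.12, and only 4 of the 17 genes lay below the median of the array labelled LP.

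Fat absorption followed the same direction, with 16 of 20 genes at least 2-fold higher, 1 lower and a median of 2.20. Fabp1, which carries fatty acids in the cytosol, was at 8.99 against 1.54, and was at 1.81 and 1.43 on the colon IEL arrays. The lipoprotein genes Apoa4, Apoa1 and Apoc2 were at 9.89 against 3.13, 8.39 against 4.74 and 6.04 against 2.83. Mttp, which loads lipid onto apolipoprotein B, was at 8.08 against 2.89. Npc1l1, the cholesterol importer, was at 7.82 against 3.92, and the sterol exporters Abcg5 and Abcg8 at 5.76 against 2.80 and 5.66 against 2.72. These 3 sterol carriers were each at least 2-fold higher. Plin2, a lipid droplet coat protein, was lower at 3.73 against 5.55, and Apobec1, Dgat2 and Scarb1, a receptor that takes up sterol from lipoproteins, were within 2-fold. The list's median level was 6.7 against 4.0, with 3 of 20 genes below the median of the array labelled LP. Fabp2, named here outside the rule, was bright on both arrays at 11.26 against 9.76.

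Of 17 genes for carriers of sugars, peptides, amino acids and vitamins, 14 were at least 2-fold higher and 1 lower (median 2.42). Slc2a2, the basolateral glucose and fructose carrier GLUT2, was at 8.10 against 1.54, and the apical glucose carrier Slc5a1 (SGLT1) at 8.59 against 5.85. The neutral amino acid carriers Slc6a19 and Slc7a8 were at 6.12 against 1.95 and 8.03 against 3.31, and the proline carrier Slc6a20a at 7.29 against 4.28. Slc46a1, the proton-coupled folate carrier, was at 7.07 against 4.47, and Slc23a1, a vitamin C carrier, at 4.28 against 1.76. The glutamate carrier Slc1a1 was lower at 2.91 against 4.36. Slc3a1, Slc5a6 and the phosphate carrier Slc34a2 differed by 1.01, −0.44 and 0.36.

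Fructose handling showed the pattern from entry to product. The fructose carrier Slc2a5 was at 6.03 against 2.53, the ketohexokinase Khk at 7.33 against 4.02 and the triokinase Tkfc at 6.62 against 3.62. Among gluconeogenic genes, Fbp1 was at 4.25 against 2.08 and G6pc at 3.54 against 2.04, while Pck1 was within 2-fold at 5.29 against 6.08. With the pyruvate kinase Pklr, 6 of 7 genes were at least 2-fold higher. Genes of citrulline synthesis were mixed, 3 of 10 higher and 1 lower, beside 8.76% and 15.7% of all genes. The mitochondrial arginase Arg2 was at 8.46 against 5.55, the ornithine carrier Slc25a15 at 6.93 against 4.93 and the ornithine transcarbamylase Otc at 7.70 against 6.18. Asl, which splits argininosuccinate, was lower at 2.42 against 4.09, and Cps1, Ass1, Nags, Oat, Aldh18a1 and Odc1 were within 2-fold.

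Retinoid genes split. Rbp2, which carries retinol in enterocytes, was at 9.60 against 4.62, and its other probe set gave a difference of 4.88. Bco1, which cleaves carotene, was at 3.23 against 1.80 and the retinol dehydrogenase Rdh7 at 3.45 against 1.68. Isx, a repressor of Bco1, was lower at 5.04 against 7.10, as was Lrat, which esterifies retinol, at 2.92 against 4.08. Aldh1a1 and Adh1 were bright on both arrays at 8.09 against 8.48 and 8.72 against 8.16, and Stra6, Aldh1a2 and Aldh1a3 were below the floor. None of the 5 iron genes above the floor was higher and 3 were lower, with a list median of −0.99 that turned to 0.64 when centred on the pan-epithelial genes. They were the transferrin receptor Tfrc at 3.28 against 6.02, the ferroxidase Heph at 5.71 against 7.32 and the iron importer Slc11a2 at 3.04 against 4.39. The exporter Slc40a1 was at 5.28 against 6.27, Fth1 at 11.26 against 11.09, and Cybrd1 and Hamp were below the floor.

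Genes that mark the ileum, the last segment of the small intestine, did not share a direction, and their median of −0.71 turned to 0.91 when centred on the pan-epithelial genes. Fabp6, the cytosolic bile acid binding protein, was at 8.55 against 5.74. The apical bile acid carrier Slc10a2 was at 3.26 against 5.78 and the bile acid receptor Nr1h4 (FXR) at 3.08 against 5.88, both higher on the array labelled LP. The basolateral carrier Slc51a was at 5.53 against 6.24 and the enterocyte hormone Fgf15 at 2.90 against 1.98, each within 2-fold. Slc10a2 was at 1.68 and 1.75 on the colon IEL arrays, so the array labelled LP was the brightest of the 4 for it.

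**Figure D3:**
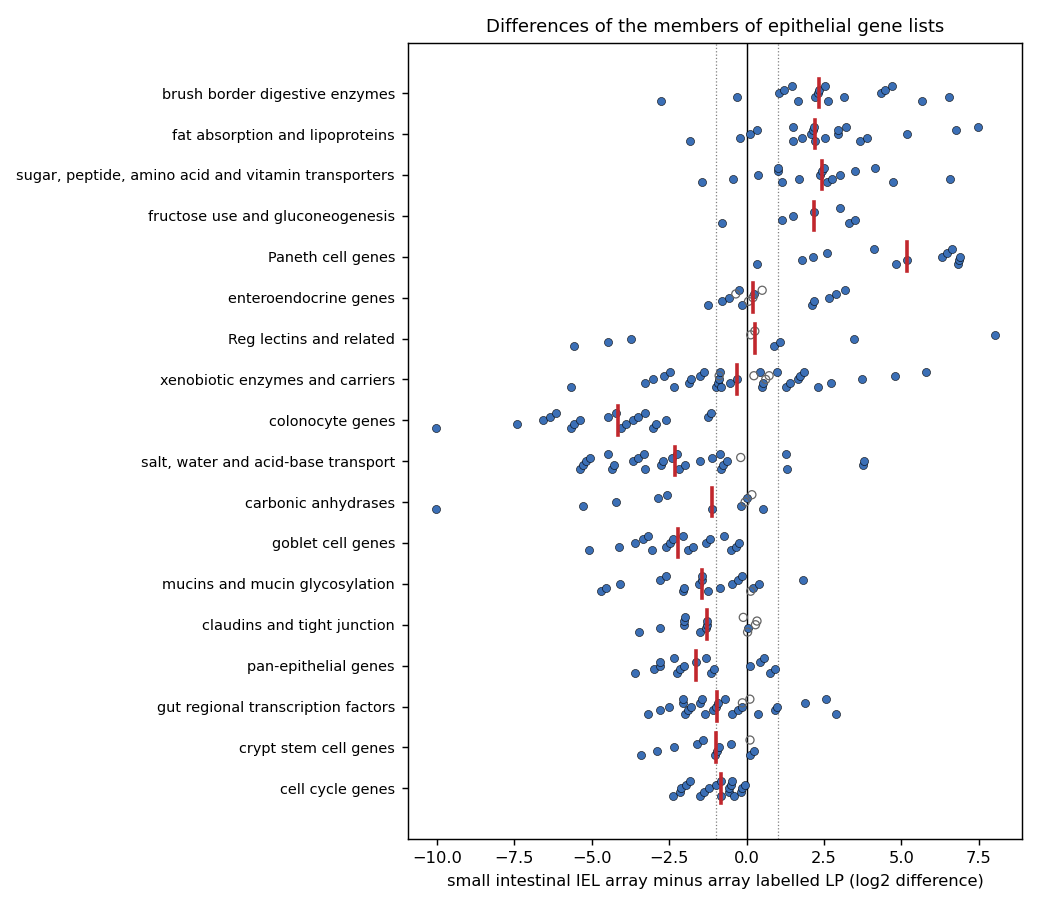
Log2 difference (small intestinal IEL array minus array labelled LP) of each measured member of 18 epithelial lists; filled points are above the level floor, open points below it, red bars are list medians and dotted lines mark 2-fold. Medians run from 5.19 for Paneth cell genes to −4.14 for colonocyte genes, and the regulators, Reg lectins and xenobiotic genes spread to both sides.

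Paneth cell genes had the highest list median of all, 5.19, with 12 of 13 measured members at least 2-fold higher and 0 lower. Lyz1, the Paneth cell lysozyme, was at 9.86 against 2.96, and the intelectin Itln1 at 8.55 against 2.09. The pentraxin Mptx2 was at 8.45 against 1.60. The defensins Defa21, Defa22 and Defa24 were at 11.13 against 4.81, 11.63 against 4.99 and 9.98 against 3.11, and Defa34 and Defa35 at 8.16 against 3.33 and 7.38 against 2.18. These defensins are near-identical copies, so a probe set may read several of them and the split between them is uncertain. The angiogenin Ang4 was bright on both arrays at 8.23 against 6.42 and reached 9.25 on the recolonized colon IEL array. Mmp7, the protease that activates defensins, was at 4.49 against 2.35, but its other, dimmer probe set gave a difference of 0.00. Pla2g2a differed by 0.33.

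The Reg lectins and their relatives divided by member rather than as a family. Reg1 was at 9.55 against 1.54, Reg3a at 5.53 against 2.05 and the bactericidal lectin Reg3g at 8.83 against 7.74, all at least 2-fold higher, and Reg3b was bright on both arrays at 10.24 against 9.35. Reg4 was lower at 6.90 against 10.65. The goblet cell protein Retnlb (RELM beta) was at 2.0 against 7.58 and the pentraxin Mptx1 at 1.41 against 5.89. The paired pentraxin genes thus had opposite differences, 6.84 for Mptx2 and −4.48 for Mptx1. Reg2 and Reg3d were below the floor.

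Of 15 enteroendocrine genes, 11 were above the floor. Of these, 5 were at least 2-fold higher and 1 lower, beside 8.76% and 15.7% of all genes. The higher ones encode hormones: Gip, the glucose-dependent incretin, was at 6.61 against 3.43, somatostatin (Sst) at 6.04 against 3.16 and cholecystokinin (Cck) at 4.53 against 1.86. Ghrelin (Ghrl) was at 3.91 against 1.73 and neurotensin (Nts) at 4.90 against 2.80. Gip was also at 5.12 on the unmanipulated colon IEL array. The granule protein Chga was lower at 4.20 against 5.45, while Chgb, Gcg, Pyy, Sct and Tph1 were within 2-fold. All 7 tuft cell genes above the floor were within 2-fold, beside 75.5% of all genes. Among them were Trpm5 at 3.57 against 2.88 and Dclk1 at 2.03 against 2.43. Of 3 M cell genes above the floor Spib, which B cells also express, was at 4.88 against 1.73, Ccl9 at 3.70 against 5.53 and Ccl20 at 2.37 against 2.55.

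Colonocyte genes were lower on the small intestinal IEL array without exception among the 20 measured, beside 15.7% of all genes, with a median of −4.14. This list was drawn up with earlier results of these data known, so its direction is not independent evidence of colonic RNA. Besides Car1, Slc6a14 and Slc26a3, the water channel Aqp8 was at 2.10 against 7.49 and the cytochrome Cyp2c55 at 5.87 against 11.54. The other probe set of Cyp2c55 was dim and gave a difference of −0.96. Sult1a1, a sulfotransferase, was at 2.37 against 8.96, the transglutaminase Tgm3 at 1.95 against 8.30 and Selenbp1, a methanethiol oxidase, at 3.12 against 8.69. Slc37a2 was at 3.49 against 9.64. The smallest differences were those of Fxyd4, Muc13 and B4galnt2 with −1.15, −1.26 and −2.60. Muc13 was bright on both arrays, at 10.22 against 11.49.

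Genes of salt, water and acid-base transport had a median of −2.33. Of 27 above the floor, 19 were lower and 4 higher, beside 15.7% and 8.76% of all genes. Centred on the pan-epithelial genes, the median was −0.70, within 2-fold, with 13 lower and 4 higher. Chloride secretion genes were among the former: Cftr was at 2.67 against 7.01, the basolateral cotransporter Slc12a2 (NKCC1) at 3.01 against 8.29 and the potassium channel subunit Kcne3 at 2.13 against 6.43. Slc16a1, a carrier of short-chain fatty acids, was at 4.46 against 9.66. Hsd11b2, which inactivates glucocorticoids in aldosterone target cells, was at 2.64 against 7.70. The 4 higher genes were Clca4b at 9.43 against 5.65, the anion exchanger Slc26a6 at 6.36 against 2.60, and the aquaporins Aqp3 and Aqp7 at 3.46 against 2.15 and 4.08 against 2.80. The anion exchangers Slc26a3 and Slc26a6 therefore went opposite ways, by −4.47 and 3.77. Aqp11, Clca4a and the sodium pump subunit Atp1b1 were within 2-fold.

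Of 9 carbonic anhydrases above the floor, 6 were lower and 0 higher, and the median of −1.13 turned to 0.50 when differences were centred on the pan-epithelial genes. Car1 was at 1.49 against 11.53, the membrane-bound Car4 and Car12 at 3.83 against 8.05 and 2.10 against 7.38, and Car8 at 2.89 against 5.75. Car2 was at 7.19 against 9.77 and Car9 at 3.27 against 4.40, while Car13, Car15 and Car3 were within 2-fold. The guanylin system, which sets fluid secretion through the receptor guanylate cyclase C, was split between its hormones. Guanylin (Guca2a) was at 6.65 against 10.54 and uroguanylin (Guca2b) at 9.71 against 6.15, while their receptor Gucy2c was at 5.98 against 8.42. The median of these 3 genes, −2.44, was −0.81 when centred on the pan-epithelial genes.

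Goblet cell genes were lower, 14 of 18 by at least 2-fold and none higher, with a median of −2.22. Centred on the pan-epithelial genes, the median was −0.60, within 2-fold, with 6 lower and 3 higher. Clca3b was at 4.07 against 9.15 and the kallikrein Klk1 at 6.68 against 10.81. The secretory machinery was included, with the stress sensor Ern2 at 2.39 against 5.98, the disulfide isomerases Pdia5 and Agr2 at 1.84 against 5.18 and 5.80 against 8.87, and the mucin glycosyltransferase Galnt12 at 3.62 against 6.10. Atoh1, the transcription factor of the secretory lineage, was at 3.40 against 6.59 and Spink4 at 6.87 against 9.46. Tff3, Sytl2 and Capn9 were within 2-fold, with Tff3 at 7.47 against 7.71. Muc2, the main secreted mucin and named here outside the rule after its values were seen, was at 9.16 against 11.55, and both of its probe sets had similar differences (−2.39 and −2.56).

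Genes of mucins and their glycosylation were lower in 11 and higher in 1 of 18 cases, with a median of −1.44 that turned to 0.19 when centred on the pan-epithelial genes. The core-branching enzyme Gcnt3 was at 2.60 against 7.30, the membrane mucin Muc4 at 2.50 against 7.05 and the fucosyltransferase Fut2 at 2.0 against 6.09. The sulfotransferase Chst4 was at 2.41 against 5.20, and B3gnt6 and B3gnt7, which extend glycan chains, at 2.06 against 4.07 and 2.62 against 4.69. The other, dim probe set of B3gnt7 gave a difference of −0.09. The sialyltransferase St3gal4 alone was higher, at 8.37 against 6.54. Muc1, Gcnt1 and St3gal6 were within 2-fold. Among 13 epithelial defence genes above the floor, Saa3 was at 1.87 against 5.29, the flagellin receptor Tlr5 at 2.10 against 4.68 and the inflammasome gene Nlrp6 at 4.79 against 6.76. Lypd8, which binds flagella, was at 9.35 against 12.29, and Sprr1a at 3.26 against 5.53. This makes 5 lower and 1 higher (Ang4), beside 15.7% and 8.76% of all genes. The defence median of −0.73 turned to 0.89 when centred on the pan-epithelial genes. The immunoglobulin carrier Pigr was bright on both arrays at 9.30 against 10.16.

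Genes shared by all intestinal epithelial cells bear on how much epithelial RNA each array held. Of 17 pan-epithelial genes, 12 were at least 2-fold lower on the small intestinal IEL array and 0 higher, with a median of −1.62. Phgr1 was at 3.75 against 7.36 (its other probe set gave −1.07), the tetraspanin Tspan8 at 5.10 against 8.09 and the transcription factor Elf3 at 4.90 against 7.69. The keratins Krt18 and Krt19 were at 5.52 against 7.67 and 5.10 against 7.44, and E-cadherin (Cdh1) at 6.98 against 9.23. The other 5 were within 2-fold. The brush border motor Myo1a was at 8.46 against 8.03, the membrane linker Ezr at 9.25 against 8.69 and the keratin Krt20 at 9.93 against 9.82. Villin (Vil1) and fimbrin (Pls1), actin bundlers chosen after their values were seen, were at 9.43 against 8.51 and 10.04 against 9.29. The 17 genes thus did not share 1 difference. Claudin and tight junction genes were lower in 9 of 10 cases, with a median of −1.29 that turned to 0.33 when centred on the pan-epithelial genes. Cldn8 was at 2.04 against 5.51, Cldn3 at 5.54 against 8.33 and occludin (Ocln) at 5.24 against 7.27, while Cldn15, a pore-forming claudin of the small intestine, was at 6.84 against 6.79.

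Transcription factors that pattern the gut were lower in 12 and higher in 3 of 24 cases above the floor. Among all genes above the floor 15.7% were lower and 8.76% higher, so the higher count lay near the share of all genes. The median of −0.95 turned to 0.67 when centred on the pan-epithelial genes. The higher ones were Hnf4g at 8.85 against 5.95, Gata5 at 5.15 against 2.60 and Creb3l3, an activator of lipid genes, at 5.18 against 3.28. Gata4, a factor of proximal small intestine, was within 2-fold at 3.59 against 2.66, and Gata6 was at 5.69 against 5.85. The hindgut Hox genes Hoxb6 and Hoxb9 were at 1.99 against 5.17 and 2.37 against 4.42. The caudal factor Cdx1 was at 3.45 against 5.96 and the nuclear receptor Nr5a2 at 3.56 against 5.55.

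Of 11 stem cell genes above the floor, 6 were lower and 0 higher, and their median of −0.98 turned to 0.65 when centred on the pan-epithelial genes. Sox9 was at 2.62 against 6.04, Rgmb at 2.54 against 5.41 and Ephb3 at 2.19 against 3.80. Lgr5, the receptor that marks crypt base stem cells, was at 1.73 against 4.07, but its other, dim probe set gave −0.02. Olfm4 and Msi1 were near the floor, at 2.47 against 2.24 and 2.41 against 2.29. Of 19 cell cycle genes, 8 were lower and 0 higher (median −0.83), beside 15.7% and 8.76% of all genes. Cyclin A2 (Ccna2) was at 3.60 against 5.98, Mki67 at 4.41 against 6.56 and the kinase Plk1 at 3.21 against 5.31, while Tyms, Mcm4 and Rrm2 differed by −0.06, −0.16 and −0.19.

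Genes that process drugs and other foreign compounds stood on both sides. Of 31 above the floor, 10 were higher and 10 lower, beside 8.76% and 15.7% of all genes. The median of −0.31 turned to 0.03 after the lowess correction and to 1.32 when centred on the pan-epithelial genes. The export pump Abcc2 was at 7.53 against 1.73 and the cytochrome Cyp2b10 at 6.07 against 1.28. Cyp4v3 was at 7.73 against 3.99, Cyp2c29 at 4.19 against 1.46 and Cyp3a11 at 3.50 against 1.20, although the other probe set of Cyp2c29 gave 0.13. On the other side stood Cyp2c55 at 5.87 against 11.54, Ces1f at 4.01 against 7.29, Sult1c2 at 1.57 against 4.59 and Cyp2s1 at 3.46 against 6.12. Within the Cyp2c family, Cyp2c66 and Cyp2c29 were thus higher, by 1.86 and 2.74, and Cyp2c55 and Cyp2c65 (the last outside the rule) were lower, by −5.67 and −2.36. Cyp2j6, Cyp3a13 and Cyp27a1 were within 2-fold.

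Fatty acid oxidation genes were lower in 7 and higher in 0 of 18 cases, with a median of −0.91. They were led by genes of mitochondrial entry, the carnitine carrier Slc25a20 at 5.02 against 8.40 and the carnitine transferase Cpt1a at 5.15 against 8.31. Acads, which oxidises short chains such as butyrate, was at 4.60 against 7.38, and the ketone enzyme Bdh1 at 3.33 against 5.02. Hadh, Hadhb and Ehhadh were within 2-fold. Of 20 oxidative phosphorylation genes, 17 were within 2-fold and 3 lower (Cox5a, Cox4i1 and Ndufs1), a share close to the 15.7% of all genes. Immediate early genes, which respond within minutes to stress and handling, were lower in 11 of 20 cases and higher in 2. Jun was at 5.18 against 8.97, Fos at 4.50 against 7.70 and Fosb at 2.25 against 5.80, while Egr3 and Socs3 were higher at 3.54 against 1.82 and 4.29 against 3.0. The other, dim probe set of Socs3 gave a difference of 0.22. Their median was −1.21, and the part of cell handling in the other differences was not tested.

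The lymphocyte genes ran almost wholly one way, and few were bright on the array labelled LP. Of 16 genes of the T cell receptor complex and its signalling, 15 were at least 2-fold higher on the small intestinal IEL array and 0 lower (median 2.80). The phosphatases Ptprc (CD45) and Ptpn22 were at 9.10 against 3.09 and 7.66 against 2.04. The adaptors Lat and Lcp2 were at 5.95 against 2.22 and 7.81 against 3.45, and the kinase Fyn at 4.82 against 1.89. The smallest differences were those of Sh2d1a, Cd2 and Cd6 with 0.63, 1.36 and 1.98. Cd3g was at 8.03 and 8.77 on the colon IEL arrays, so all 3 IEL arrays were far above the array labelled LP for it.

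Co-receptors of both lineages were higher. Cd8a was at 8.51 against 2.33, Cd8b1, the CD8 beta chain, at 5.71 against 2.67 and Cd4 at 5.91 against 1.89. The difference was 6.17 for Cd8a and 3.04 for Cd8b1, although probe sets of different genes need not respond alike. On the unmanipulated and recolonized colon IEL arrays Cd8a was at 6.48 and 7.04, below the small intestinal array, and Cd4 at 8.09 and 7.70, above it. Cd27 was at 5.34 against 1.86 and Runx3, a factor of the CD8 lineage, at 4.67 against 2.94. Zbtb7b, Cd28 and Icos were within 2-fold and Cd40lg was below the floor, which makes 5 of 8 higher, and the list median of 1.72 turned to −1.08 when centred on the T cell receptor genes.

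Genes of natural IEL had a median of 4.64, with 13 of 14 at least 2-fold higher and 0 lower. This median remained positive (1.84) when centred on the T cell receptor genes. On the array labelled LP both lists were dim, with median levels of 2.52 and 2.37 (natural IEL and T cell receptor genes) near that array's median of 2.18. The centring therefore mostly compares their median levels on the small intestinal IEL array, 7.23 and 5.06, and not amounts per T cell. Itgae, the CD103 chain that binds E-cadherin, was at 7.90 against 2.33, while the gene of its epithelial partner Cdh1 was at 6.98 against 9.23. Cd7 was at 10.08 against 4.43, the interleukin-15 receptor chain Il2rb at 7.67 against 2.89 and the inhibitory receptor Cd244a at 6.80 against 2.21. Klrd1, a partner chain of NKG2 receptors, was at 7.91 against 2.43, and the signalling adaptor Fcer1g at 7.87 against 3.18. Kit, also expressed by mast cells, was within 2-fold at 5.36 against 5.05. Of 11 natural killer type receptors 5 were above the floor, and Klrd1, Cd244a and Cd160 were the 3 higher ones. The median of 0.72 turned to −2.09 when centred on the T cell receptor genes. Ncr1 and Klre1 differed by 0.79 and 0.96. Of 4 measured gamma delta T cell genes, Maf was at 5.53 against 2.69 and Blk, which B cells also express, at 5.29 against 2.32. Sox13 was within 2-fold and Il23r below the floor, and the median of 1.60 turned to −1.20 when centred on the T cell receptor genes.

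Cytotoxic granule genes were higher in 9 of 12 cases above the floor, but their median of 2.07 turned to −0.73 when centred on the T cell receptor genes. The members were uneven. Gzma and Gzmb differed by 8.02 and 7.33, the chemokine Ccl5 by 6.67 and the granule membrane protein Nkg7 by 5.60. Srgn, which packs granules, was at 7.58 against 3.52 and the death ligand Fasl at 4.34 against 2.27. Gzmk was at 5.57 against 2.36, whereas Gzmm was near the floor at 2.35 against 2.13 and Gzmc below it. Among type 1 genes Stat4 was at 6.96 against 2.26, Tbx21 (T-bet) at 4.80 against 2.95 and the chemokine Ccl3 at 4.90 against 1.73. 7 of 8 were higher and Cxcr3 was within 2-fold, with a median of 2.04 that turned to −0.76 under the same centring. Ifng and Eomes were below the floor. Type 3 genes were mostly dim: Il17a, Il17f, Il22 and Il23r were below the floor, Ccr6 was at 3.01 against 1.55 and Il1r1 was lower at 2.55 against 5.46. With few T cell transcripts on the array labelled LP, its Il1r1 level cannot be assigned to T cells.

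**Figure D4:**
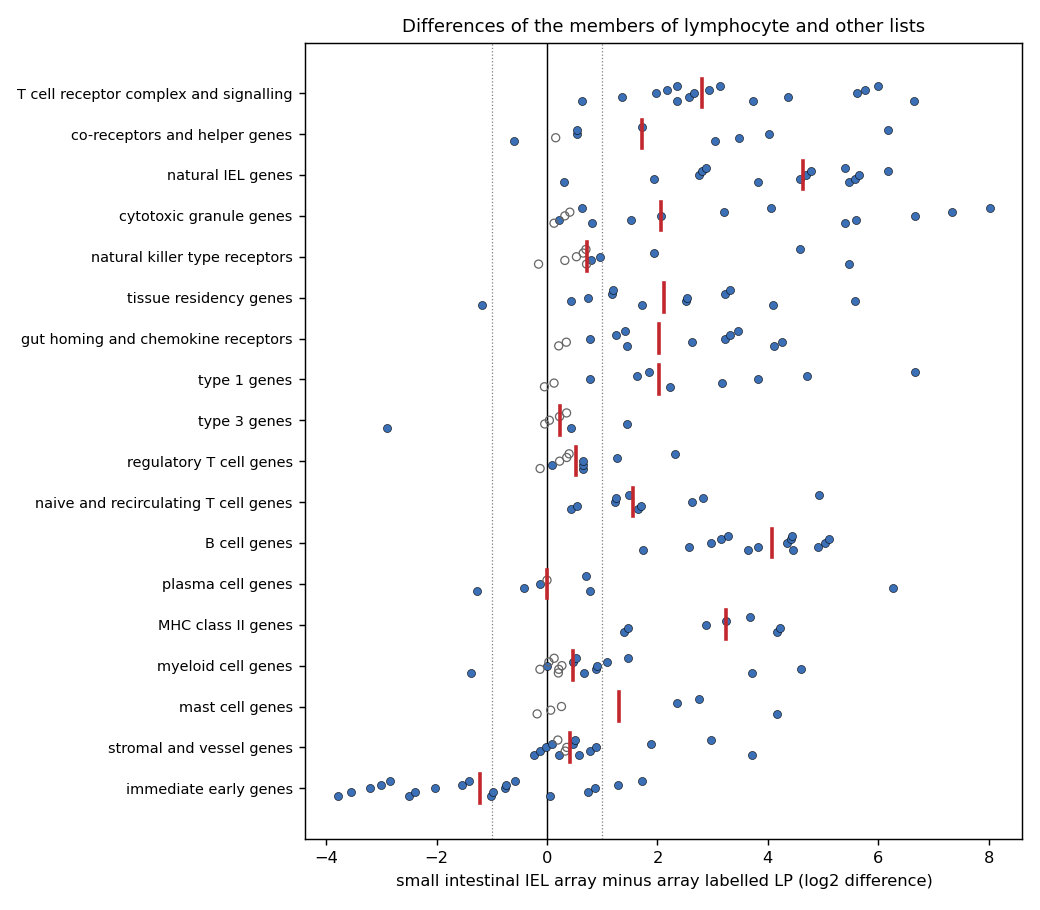
Log2 difference (small intestinal IEL array minus array labelled LP) of each measured member of 18 lymphocyte, myeloid, stromal and stress lists; filled points are above the level floor, open points below it, red bars are list medians and dotted lines mark 2-fold. Medians are 4.64 for natural IEL genes, 4.08 for B cell genes and −1.21 for immediate early genes, and medians of most T cell lists turn negative when centred on the T cell receptor genes.

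Residency and homing genes were higher against the array labelled LP, with medians of 2.12 and 2.04 that turned to −0.68 and −0.76 when centred on the T cell receptor genes. The collagen-binding integrin Itga1 was at 7.04 against 2.96, and Itga4 and Itgb7, whose integrin binds MAdCAM-1, at 6.38 against 2.14 and 5.95 against 2.74. Cxcr6 was at 4.70 against 1.38, Cd69 at 4.59 against 2.06 and Rgs1 at 3.96 against 1.41. The orphan receptors Gpr18 and Gpr55 were at 6.63 against 2.52 and 5.06 against 1.60. Ccr9, the small intestinal homing receptor, was at 3.24 against 1.83, and its ligand Ccl25 at 4.65 against 3.67, within 2-fold. Gpr15, the homing receptor of the large intestine, was below the floor at 1.76 against 1.41. The mouse gene of its ligand, 2610528A11Rik, chosen after its values were seen, was at 3.17 against 11.46, and at 7.03 and 8.93 on the colon IEL arrays. Bhlhe40, counted here as a transcription factor of resident T cells, was lower at 6.02 against 7.19. The array labelled LP held few T cell transcripts, so its Bhlhe40 level cannot be assigned to T cells.

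Naive and recirculating T cell genes were higher in 8 of 10 cases, but their median of 1.57 turned to −1.24 when centred on the T cell receptor genes. The interleukin-7 receptor Il7r was at 6.44 against 1.52, Bcl2 at 7.07 against 4.24 (its other probe set gave 0.06) and the exit receptor S1pr1 at 4.97 against 2.35. Bach2 was at 3.85 against 2.14, Satb1 at 3.78 against 2.14, Lef1 at 3.85 against 2.37, Ccr7 at 3.55 against 2.30 and Klf2 at 4.16 against 2.93. Foxp1 and Il6ra differed by 0.44 and 0.55. The list's median level was 4.01 on the small intestinal IEL array, below 5.84 and 6.22 on the unmanipulated and recolonized colon IEL arrays, where Lef1 was at 7.14 and 7.55. Only Bach2 and Foxp1 were dimmer on the unmanipulated colon IEL array than on the small intestinal one, at 3.56 and 6.04. Of 10 regulatory T cell genes measured, 4 were below the floor. Ikzf2 (Helios), which is not restricted to regulatory T cells, was at 5.44 against 5.36. Foxp3 was at 2.65 against 2.0, within 2-fold, and Tigit and Tnfrsf18 were the only 2 of 6 above the floor that were higher. The regulatory list's median of 0.53 turned to −2.28 under that centring.

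Genes for IEL ligands and homing signals did not move together. Among 9 genes above the floor, Ccl28 was at 2.21 against 5.83, Il15 at 2.91 against 5.35 and Cdh1 at 6.98 against 9.23. Btnl2, a butyrophilin-like gene, was higher at 5.61 against 4.22, and Btnl1, which supports gut gamma delta T cells, was at 6.57 against 6.77. Cxcl16, the ligand of Cxcr6, was at 4.19 against 3.32, while Ccl20 and Madcam1 were near the floor. Il7 and Tslp were below it.

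B cell genes accompanied the T cell genes. All 14 measured were at least 2-fold higher on the small intestinal IEL array, with a median of 4.08. The surface protein CD20 (Ms4a1) was at 6.65 against 1.55, the receptor chain Cd79a at 7.49 against 2.45 and the scaffold Bank1 at 6.91 against 2.0. Cr2, Fcer2a and Cd22, surface proteins of mature follicular and marginal zone B cells, were at 5.97 against 1.55, 5.20 against 1.38 and 6.40 against 2.04. Ms4a1 was at 3.17 and 1.74 on the colon IEL arrays (unmanipulated and recolonized), but Cd79a was at 5.57 and 3.31 there. The median level of the B cell list was 6.1 on the small intestinal IEL array and 3.2 and 2.7 on the colon IEL arrays. These levels were not rescaled, and the median level of 9 reference genes was also higher on the small intestinal IEL array, at 7.26 against 5.78 and 5.90. Of 4 germinal centre genes Fcrla was at 3.30 against 1.98 and Bcl6, Gcsam and S1pr2 were within 2-fold. Of the plasma cell genes Jchain, the immunoglobulin joining chain, was at 7.64 against 1.38, but Tnfrsf17 was below the floor and Mzb1, Tnfrsf13b, Derl3 and Xbp1 were within 2-fold. Sdc1, which epithelium also expresses, was lower at 2.97 against 4.24 (its other, dim probe set gave −0.28). The joining chain thus stood apart from the other 6 members.

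All 7 MHC class II genes measured were higher, with a median of 3.24. H2-Aa was at 8.12 against 3.90, H2-Ab1 at 9.30 against 5.13 and H2-Eb1 at 7.51 against 3.83, and the activator Ciita at 5.16 against 1.91. H2-Ob, largely a B cell gene, was at 4.98 against 2.10, and the peptide loaders H2-DMa and H2-DMb1 at 4.70 against 3.24 and 3.42 against 2.02. Class II genes are made by B cells, dendritic cells and small intestinal epithelium, all cells that the negative selection and EpCAM capture were meant to remove, and the part of each in the signal was not tested. Interferon-stimulated genes were within 2-fold in 8 of 10 cases, near the 75.5% of all genes above the floor. Oasl2 and Ifit1 were higher at 4.89 against 3.71 and 4.52 against 3.42. Of 11 myeloid genes above the floor, 4 were higher and 1 lower, beside 8.76% and 15.7% of all genes. Lyz2 was at 6.65 against 2.05 and Itgax at 5.24 against 1.52, both also found in other cells of the gut, and C1qb and Itgam differed by 1.47 and 1.09. C1qa was at 3.07 against 3.06, Adgre1, S100a8 and S100a9 were below the floor, and Cd14 was lower at 1.66 against 3.04. The mast cell proteases Mcpt1 and Mcpt2 were at 6.29 against 2.12 and 4.45 against 1.69, while Mcpt4 was below the floor. Stromal genes were within 2-fold in 10 of 13 cases, also near the 75.5% of all genes. The others were Vim at 7.20 against 3.48 (its other probe set gave 0.70), the matrix protein Dcn at 6.23 against 3.26 and Pecam1 at 5.39 against 3.51. Which cells, stromal or lymphocyte, gave the Vim and Pecam1 signals was not tested. The smooth muscle genes Tagln and Acta2 differed by −0.01 and 0.09. The part of stromal and myeloid cells in the other differences was not tested.

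Transcripts from outside the intended cells were also present. Pancreatic enzyme genes were at 5.58 against 2.50 for Cpa1, 5.29 against 1.41 for Cpb1 and 6.78 against 2.73 for Ctrb1. Clps, the colipase gene counted here in the Paneth list but also a pancreatic gene, was at 5.59 against 3.0 (named after its values were seen). Cela1 was at 5.54 against 6.11, and Prss1 and Cela3b were below the floor. The part of pancreatic RNA in the other differences was not tested. Sex-linked genes differed although both pools are described with equal numbers of each sex: Xist, expressed from the inactive X chromosome, was at 5.70 against 1.86. The Y-linked genes Eif2s3y, Uty and Kdm5d were at 4.67 against 5.46, 3.56 against 4.85 and 2.98 against 4.41, brighter on the array labelled LP. The part of sex in the other differences was not tested. Of 9 reference genes 8 were within 2-fold, beside 75.5% of all genes above the floor, with Hprt lower at 5.31 against 6.38.

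**Figure D5:**
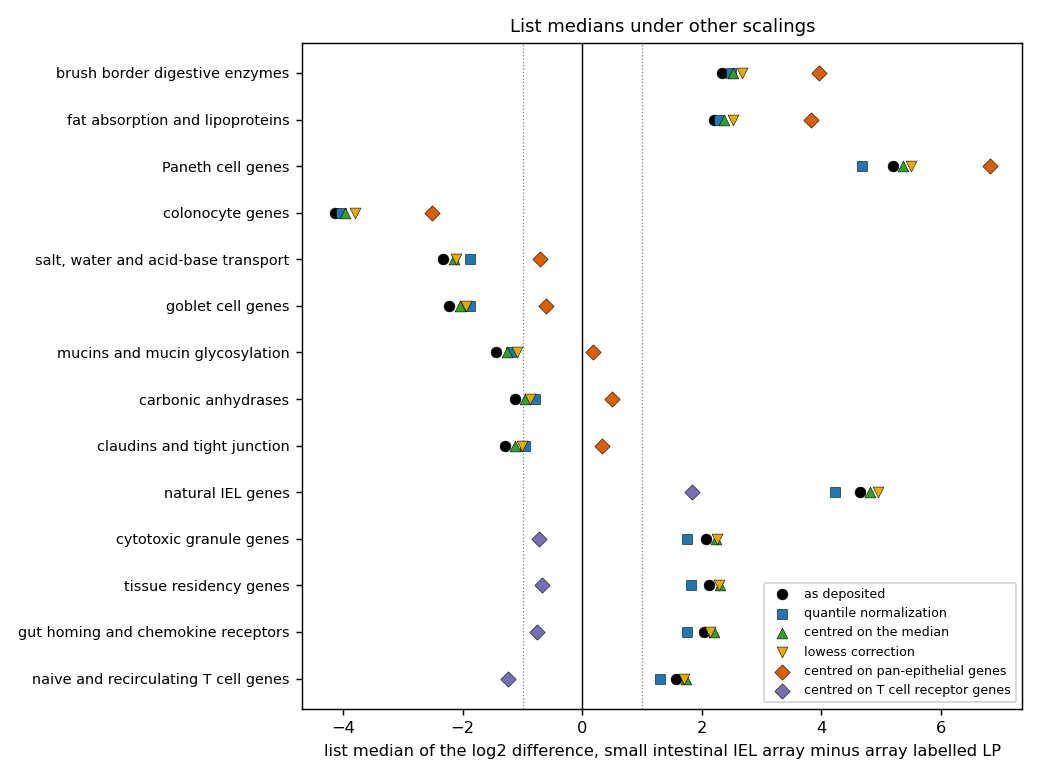
Median log2 difference of 14 gene lists as deposited and under other scalings (small intestinal IEL array minus array labelled LP); dotted lines mark 2-fold. Quantile normalization, median centring and lowess leave each median on its side of 0, centring on pan-epithelial genes turns the carbonic anhydrase, mucin and claudin medians positive, and centring on T cell receptor genes turns 4 of 5 T cell medians negative, the natural IEL median staying at 1.84.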

How the data were processed

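RNA of 4 pooled samples, 1 per group, was measured on 1 Affymetrix array each. The authors deposited log2 values per probe set, and the submitters' processing notes name Affymetrix Expression Console; the version and any summarization or normalization settings were not given in the sources used here. Of 41345 probe sets, 23521 had 1 gene symbol, 1814 had several and 16010 were not in the annotation table used. Gene IDs of 23328 matched RefSeq (GRCm38.p6) and 0 symbols needed an update. Each of 22180 genes was read from 1 probe set, for the 1082 genes with several the brightest by its mean over the 4 arrays. The LP value was subtracted from the small intestinal IEL value. Genes under the 50th percentile of the array on which they were brighter were not called. No test was possible with 1 array per group, and the arrays' number limits the precision.

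The comparison and 54 gene lists (724 genes, 648 measured) were chosen with earlier results of these data known, so their counts are not independent support. Named genes were the 15 largest differences in each direction (without receptor segments, unnamed genes, small RNAs, pseudogenes and chemoreceptors), the listed markers, and per described list its 8 largest, those called against the list's sign and the 3 nearest 0. Alternatives were a lowess correction (span 0.3), quantile normalization, averaging of probe sets, other fold thresholds and centring on the median, on pan-epithelial genes or on T cell receptor genes; no pseudocount was needed on log2 values. Scripts were tested on simulated data. Python 3.11.15, numpy 2.4.6, pandas 2.3.3, scipy 1.17.1, statsmodels 0.14.6 and matplotlib 3.10.9 were used.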

Additional observations from a re-analysis of the deposited data

How the results depend on the processing

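At a 1.5-fold threshold 1792 genes were higher and 3468 lower, and at 3-fold 656 and 895, as follows from the thresholds. Higher genes were 46.3% of those called after centring on the median and 47.4% after lowess, against 35.8% as deposited. Averaging probe sets left all 52 compared results on their side of the threshold, and quantile normalization, median centring and lowess left 49, 50 and 49. The exceptions were the carbonic anhydrase median (−0.789, −0.953 and −0.874 under quantile normalization, median centring and lowess), the claudin median (−0.954 under quantile normalization), the immediate early median (−0.989 and −0.962 under quantile normalization and lowess) and the germinal centre median (1.059 and 1.02 under median centring and lowess). Centring on the pan-epithelial genes adds 1.62 to every difference by construction. It turned the medians of carbonic anhydrases (0.497), mucins (0.185), claudins (0.33), M cell genes (1.605) and xenobiotic genes (1.317), and those of iron (0.636), ileal bile acid (0.912), defence (0.893), regional factor (0.672) and crypt stem cell genes (0.648), which stayed within 2-fold. It brought salt and water transport (−0.701), the guanylin system (−0.813) and goblet cell genes (−0.599) within 2-fold, and citrulline (1.965), retinoid (1.87), Reg (1.891), enteroendocrine (1.829) and tuft cell genes (1.803) past it. Centring on the T cell receptor genes subtracts 2.80 by construction, so every positive median below that value turned negative, also in lists with many dim genes. It turned the medians of co-receptors (−1.078), gamma delta (−1.203), cytotoxic (−0.731), natural killer type (−2.085), residency (−0.677), homing (−0.765), naive (−1.236), regulatory (−2.277), type 1 (−0.765) and type 3 genes (−2.574). No paired analysis was possible because each group has 1 array. Signal near the array medians limits the size of differences with a dim side.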

Other observations

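Further gene groups were picked after their values were seen, so their counts describe these arrays and no more. The genes that oxidise sulfide and process sulfur amino acids were lower on the small intestinal IEL array in 8 of 9 cases (median −3.53). The dioxygenase Ethe1 was at 4.67 against 9.47, the sulfide quinone oxidoreductase Sqor at 3.65 against 6.72 and the sulfurtransferase Tst at 3.76 against 7.42. Cbs, which makes cystathionine, was at 1.87 against 5.56, and the sulfite oxidase Suox differed by −0.01. Genes of purine breakdown and uptake went the other way in 6 of 9 cases above the floor, with 1 lower (Hprt). The adenosine deaminase Ada was at 8.34 against 3.18, the nucleoside carrier Slc28a2 at 6.00 against 2.30, the guanine deaminase Gda at 8.95 against 5.69 and the xanthine dehydrogenase Xdh at 7.75 against 4.69.

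All 8 Gimap genes measured, GTPases of lymphocytes, were at least 2-fold higher, with Gimap3 at 7.54 against 2.46 and Gimap4 at 7.68 against 3.19. All 17 immunoglobulin segments above the floor were higher too, and Ighm, the heavy chain of IgM, was at 10.12 against 5.43. Among 7 gasdermins above the floor, 3 were lower and 1 higher, beside 15.7% and 8.76% of all genes. Gsdmc2 and Gsdmc3 were lower by differences of −7.48 and −5.87. Gsdmd, the pore former cut by inflammatory caspases, was at 6.96 against 5.96. Of 8 heat shock genes above the floor 3 were lower and 5 within 2-fold (list median −0.45). The lower ones were Hspa1a at 1.28 against 4.22, Hspa1b at 2.09 against 5.62 and the mitochondrial chaperone Hspd1 at 4.10 against 6.30. Of 12 Alg genes of protein N-glycosylation 8 were lower, but 5 under quantile normalization and 6 after lowess, where the median of −1.27 became −0.88 and −0.98. Glp1r, the receptor of the incretin GLP-1, was at 7.78 against 2.72.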
